A study of Mus musculus with 4 samples.

Results

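Immediate early genes are genes that cells transcribe within minutes of a growth factor, stress or mechanical signal, without first making new protein. Here 10 of them, Fos, Fosb, Fosl1, Jun, Junb, Egr1, Ier2, Ier3, Atf3 and Myc, were followed in B16F10 mouse melanoma cells. They were chosen by their symbol among the 24527 gene symbols of the deposited count table, and all 10 had reads in every library. Their mean level was at least 1 CPM (a gene's share of the library's counts, scaled with edgeR's TMM factors) for 9 of the 10, and Fosl1 lay below it.

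RNA was sequenced from B16F10 cells grown as a 2D monoculture, grown in 2D co-culture with NIH/3T3 mouse fibroblasts, grown with the same fibroblasts as hanging-drop spheroids, and from tumors grown under the skin of 1-year-old female C57BL/6 mice. All groups carry the label of wild-type genotype. The study's methods describe a B16F10 line with green fluorescent protein, whose fluorescent cells were sorted from spheroids, 2D co-culture and monolayer with dead cells excluded, while the series' design text lists no sorting for the monoculture. The tumor cells are described as sorted too, whereas the library is named for snap-frozen tumor. There is 1 library per condition, so no difference has a replicate check, no test between conditions was possible and no p-value is given. The intervals given hold 95% and describe the counting error alone.

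FOS and JUN proteins join in pairs, through leucine zippers, to form the AP-1 transcription factor. EGR1 is a zinc finger factor, and both Fos and Egr1 are switched on by the ERK kinase cascade through serum response factor and its partners. MYC drives growth and ribosome production, and ATF3 is a stress-induced factor that lies downstream of ATF4 as well as of growth signals. The label of the group is not right for every member, since Ier3 encodes a small stress-induced membrane protein that acts on cell survival and is not known as a DNA-binding factor. In melanoma the ERK cascade is often permanently active, and dissociation of tissue, sorting and handling are known to induce these genes as well.

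Promoter sequences from RefSeq (build GRCm38.p6) were matched for 6 of the 10 members, Fos, Fosb, Jun, Junb, Ier3 and Atf3, and the 250 bases directly before the start site were searched on both strands for 8 textbook motifs. The sites of the CREB and ATF factors were searched as TGACGT and, in a looser form that can overlap it, as TGANNTCA. The AP-1 site was searched as TGAGTCA. The site of dimers of ATF4 with C/EBP proteins was searched as TGATGNAA. The EGR1 site was searched as GCGTGGGCG. The E-box bound by MYC was searched as CACGTG. The TATA box was searched as TATAAA. The CArG box of serum response factor was searched under its usual definition. Matches were found in Fos, Jun and Atf3, whose sequences are printed 5′ to 3′ with the matches in capitals because these members ordered the libraries differently, although the spheroid was the highest for each. The windows are chr12:85473640-85473889 on the plus strand for Fos, chr4:95052223-95052472 on the minus strand for Jun and chr1:191183334-191183583 on the minus strand for Atf3. The Atf3 window lies inside the gene's span, chr1:191170296-191218039, so it precedes an internal start site. The bases before the outermost start of Atf3 were not searched.
Fos: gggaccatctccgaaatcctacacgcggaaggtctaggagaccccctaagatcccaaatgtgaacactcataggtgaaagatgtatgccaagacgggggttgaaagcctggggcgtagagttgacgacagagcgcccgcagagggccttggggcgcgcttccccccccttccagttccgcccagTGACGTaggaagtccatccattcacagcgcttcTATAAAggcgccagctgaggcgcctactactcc
Jun: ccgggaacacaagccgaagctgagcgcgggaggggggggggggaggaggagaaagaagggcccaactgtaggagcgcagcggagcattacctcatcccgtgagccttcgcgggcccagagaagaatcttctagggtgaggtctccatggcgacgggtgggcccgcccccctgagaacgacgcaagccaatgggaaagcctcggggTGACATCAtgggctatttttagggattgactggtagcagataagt
Atf3: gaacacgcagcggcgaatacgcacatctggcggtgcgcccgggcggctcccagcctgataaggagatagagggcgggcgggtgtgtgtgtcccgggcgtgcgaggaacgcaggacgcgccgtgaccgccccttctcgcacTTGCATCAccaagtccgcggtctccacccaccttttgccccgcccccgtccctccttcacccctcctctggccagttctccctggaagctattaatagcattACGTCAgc
The Fos window held TGACGT and TATAAA, the Jun window TGACATCA (a match of TGANNTCA), and the Atf3 window TTGCATCA and ACGTCA, the reverse complements of matches to TGATGNAA and TGACGT. None of the 8 motifs was found in the windows of Fosb, Junb and Ier3. Of 32851 promoter windows in the table, 6.47% held TGACGT, 11.9% TGANNTCA, 3.45% TGATGNAA and 12.4% TATAAA. The other motifs stood in 4.46% (TGAGTCA), 1.47% (CArG box), 6.02% (CACGTG) and 0.536% (GCGTGGGCG) of the windows. A match is a string of letters and was not tested for binding. Sites beyond the 250 bases were not searched, so a missing match, as for the CArG box in Fos, does not show that a gene lacks the site.

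The libraries held between 118896900 and 150028663 reads, and a gene without a read may hold up to 3 reads, or 0.0185 to 0.0262 CPM. Melanocyte markers were strong everywhere, with 8 of 8 genes at 70.3 CPM or more in each library. In the tumor library all 10 myeloid markers, all 8 endothelial markers, all 6 skeletal muscle markers and all 5 adipocyte markers were above 1 CPM, with sums of 1955, 285, 4742 and 1418 CPM, against at most 30.0, 4.62, 12.6 and 2.49 CPM in any culture. Lymphoid markers summed to 7.05 CPM and keratinocyte markers to 1.11 CPM there, against 0.213 and 0.769 CPM or less elsewhere. The 10 fibroblast markers summed to 3204 CPM in the tumor library, 683 CPM (2D co-culture), 37.4 CPM (spheroid) and 19.7 CPM (2D monoculture). In the 2D co-culture 8 of these 10 were above 1 CPM, against 4 in each of the other cultures. The part of these cells in the levels below was not tested, and in such bulk samples fewer cells of a type and less RNA per cell cannot be told apart. Dissociation and sorting cannot be told apart from the conditions either.

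Fos (chr12:85473890-85477273, plus strand), the founding member of its family, had 247 CPM (spheroid), 63.2 CPM (2D co-culture), 44.4 CPM (tumor) and 23.7 CPM (2D monoculture). The spheroid stood far above the rest, 10.4-fold above the 2D monoculture (log2 ratio 3.39, interval 3.33 to 3.44). Fosb (chr7:19302696-19310051, minus strand), whose protein pairs with JUN in the same way, had 45.1 CPM (spheroid), 29.1 CPM (2D co-culture), 6.64 CPM (tumor) and 3.73 CPM (2D monoculture). Its order was the same as that of Fos, but the 2D co-culture lay much closer to the spheroid, at a spheroid to co-culture ratio of 1.55 against 3.91 for Fos. Fosl1 (chr19:5447547-5455946, plus strand) encodes FRA1, a FOS-type protein of invasive cells. It was nearly silent, with 220 reads (1.92 CPM) in the 2D co-culture, 64 reads (0.394 CPM) in the tumor, 46 reads (0.323 CPM) in the 2D monoculture and 29 reads (0.213 CPM) in the spheroid. The co-culture was alone in standing out, 5.95-fold above the monoculture (log2 ratio 2.57, interval 2.11 to 3.06), and the intervals of neighbours among the other libraries overlapped. The fibroblast markers given above were high in that library and higher still in the tumor, where Fosl1 had 0.394 CPM. The part of fibroblasts in the Fosl1 level was not tested. The Fosl1 exons share 1163 bases with Ccdc85b on the opposite strand, so that reads there cannot be assigned without knowledge of strand.

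Jun (chr4:95049034-95052222, minus strand), the main partner of FOS, was the most abundant member in CPM in every library but the tumor, with 451 CPM (spheroid), 316 CPM (2D co-culture) and 200.4 CPM (2D monoculture), against 64.4 CPM (tumor). The cultures were all above the tumor, by 7.01-fold for the spheroid and 3.11-fold for the monoculture. Junb (chr8:84974484-84978718, minus strand), a JUN protein that can oppose JUN, had 154 CPM (spheroid) and lay within a narrow band elsewhere, with 64.6 CPM (tumor), 63.2 CPM (2D co-culture) and 55.9 CPM (2D monoculture). The intervals of tumor and co-culture overlapped for Junb. Jun shares 232 exon bases with the antisense gene Junos, and Junb 173 with Prdx2.

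Egr1 on chromosome 18 had 168 CPM (spheroid), 57.0 CPM (2D co-culture), 12.1 CPM (2D monoculture) and 9.71 CPM (tumor). It had the widest span among the members that passed 1 CPM, 17.3-fold between spheroid and tumor (log2 ratio 4.11, interval 4.04 to 4.19) and 13.9-fold between spheroid and 2D monoculture (3.80, interval 3.73 to 3.87). Among the 12728 genes tested, which averaged 1 CPM or more, its ratio of spheroid to 2D monoculture, with 1 CPM added, ranked 7 from the top, that of Fos 14 and that of Fosb 16.

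Ier2 (chr8:84661331-84662852, minus strand), a nuclear protein of the growth factor response, had 152 CPM (spheroid), 62.9 CPM (2D co-culture), 30.6 CPM (2D monoculture) and 24.0 CPM (tumor). Its libraries were ordered as those of Egr1, with a smaller span. Ier3 (chr17:35821684-35822923, plus strand) had 369 CPM (spheroid), 110 CPM (2D co-culture), 89.5 CPM (2D monoculture) and 83.7 CPM (tumor). The spheroid stood apart for Ier3, 3.34-fold above the 2D co-culture, which was itself 1.23-fold above the monoculture.

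Atf3 (chr1:191170296-191218039, minus strand) followed another pattern, with 195 CPM (spheroid) and 173 CPM (2D monoculture) against 30.3 CPM (2D co-culture) and 21.7 CPM (tumor). It was the only member with the 2D co-culture far below the 2D monoculture, 5.71-fold lower (log2 ratio -2.51, interval -2.57 to -2.46), while spheroid and monoculture differed by 1.12-fold. Myc (chr15:61985391-61990374, plus strand) was highest in the 2D co-culture at 153 CPM, and had 73.7 CPM (spheroid), 43.3 CPM (2D monoculture) and 40.6 CPM (tumor). Myc was thus the one well-expressed member for which the co-culture exceeded the spheroid, by 2.08-fold, and its levels in monoculture and tumor differed by 1.07-fold.

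**Figure D1:**
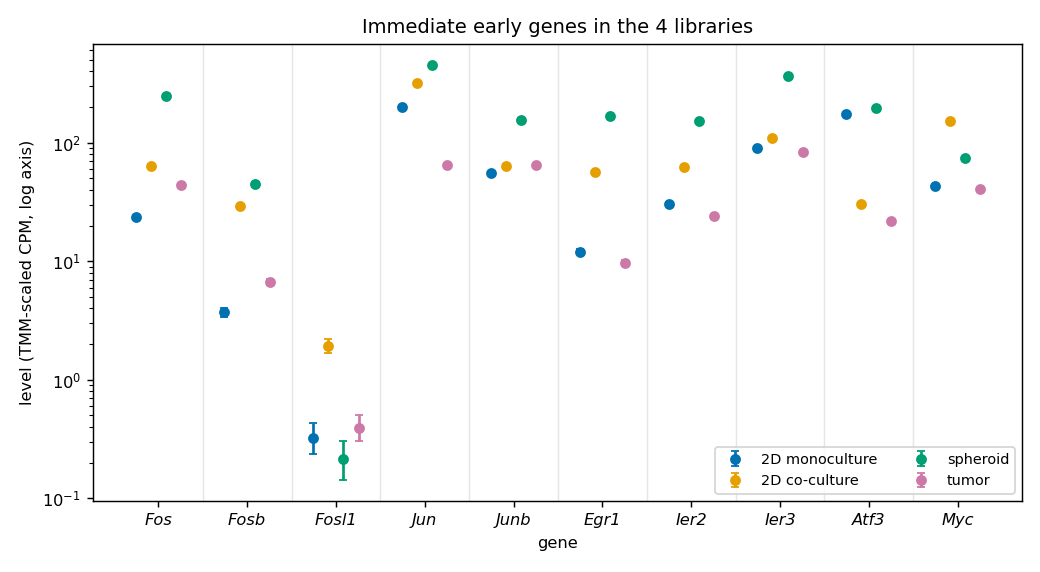
Level of each gene in the 4 libraries, in TMM-scaled CPM on a log axis, with 1 point per library and bars for the 95% counting interval, which are mostly smaller than the points. The spheroid is the highest library for 8 of the 10 genes, the exceptions being Fosl1 and Myc, and the 2D co-culture is low for Atf3.

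The first comparison sets the spheroid, grown with fibroblasts, against the 2D monoculture. The study's methods name RPMI medium for B16F10 cells and Dulbecco's modified Eagle medium for the spheroids. Medium and its renewal cannot be told apart from growth as a spheroid. With 1 CPM added to each value, 7 of the 10 members were over 2-fold higher in the spheroid and 0 were over 2-fold lower, whereas 11.2% of all genes tested were over 2-fold higher and 17.9% over 2-fold lower. The 7 were Egr1, Fos, Fosb, Ier2, Ier3, Junb and Jun, from the largest to the smallest ratio. The median log2 ratio of the members was 1.74, against 0.05 over all genes tested. Myc (0.75), Atf3 (0.17) and Fosl1 (-0.13) were within 2-fold.

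With fibroblasts in 2D, 6 of the 10 members were over 2-fold higher than in the monoculture (3.79% of all genes tested) and 1 was over 2-fold lower (9.51%). Those higher were Fosb with a log2 ratio, 1 CPM added, of 2.67, Egr1 (2.15), Myc (1.80), Fos (1.38), Fosl1 (1.14) and Ier2 (1.02), and the member lower was Atf3 (-2.48). The median was 1.08, against 0.01 over all genes tested. Fosl1 is not among the genes tested, and of the 9 members that are, 5 were over 2-fold higher and 1 lower. Ier2 lay at the edge of the 2-fold limit, and Jun (0.66), Ier3 (0.30) and Junb (0.18) were within it. The spheroid and co-culture comparisons share the monoculture library.

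The tumor library, in contrast, was close to the monoculture for most members on TMM-scaled values. There 0 of the 10 were over 2-fold higher (14.8% of all genes tested) and 2 were over 2-fold lower (18.2%), namely Atf3 with a log2 ratio of -2.94 and Jun with -1.62. The member nearest to the upper limit was Fos at 0.88, and the one nearest to the lower limit was Ier2 at -0.34. The median log2 ratio was -0.09, against -0.14 over all genes tested, and turned to 0.14 with total counts and to 0.31 after the GC and length step. The sign of the ratios within 2-fold depended on the scaling for Ier3 and Myc, which turned positive with total counts or upper quartiles, and on the GC content and length described below for Egr1, Ier2 and Myc. Over the members, the median absolute log2 difference between tumor and monoculture was 0.31, the smallest of the 6 pairs of libraries, whereas over all genes tested it was 0.67 and the 2D cultures were the nearest pair at 0.37. After the step on GC content and length the median over 9 members was 0.80, still the smallest of the 6 pairs, with 0.92 for co-culture and tumor next to it. Over all genes with a value the difference between tumor and monoculture was then 0.45, so the members differed more than the typical gene after that step.

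Set against the tumor, the spheroid was over 2-fold higher for 8 of the 10 members (26.8% of all genes tested) and over 2-fold lower for 0 (27.6%). The log2 ratios with 1 CPM added ran from 3.98 for Egr1 and 3.11 for Atf3 to 1.24 for Junb, and Myc (0.84) and Fosl1 (-0.20) were within 2-fold. The median was 2.52, against 0.08 over all genes tested. Spheroid and 2D co-culture were both grown with fibroblasts and differ in the dimension of the culture. Their fibroblast markers also differed, at sums of 37.4 CPM (spheroid) and 683 CPM (2D co-culture), and this cannot be told apart from dimension. Between these libraries, 6 of the 10 members were over 2-fold higher in the spheroid (9.54% of all genes tested) and 2 over 2-fold lower (8.46%). The largest ratio was that of Atf3 (2.64), followed by Fos (1.95), Ier3 (1.73), Egr1 (1.55), Junb (1.27) and Ier2 (1.26), and those lower were Fosl1 (-1.27) and Myc (-1.05). Of the 9 members among the genes tested, which leave out Fosl1, 6 were higher and 1 lower. After the step on GC content and length described below, Junb (0.76) and Ier2 (0.65) were within 2-fold here, 4 of the 9 members with a value were over 2-fold higher, and the median went from 1.27 to 0.76. Over all genes with a value, 6.99% were over 2-fold higher after that step and 6.62% lower. Fosb (0.62) and Jun (0.51) were within 2-fold in this comparison.

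**Figure D2:**
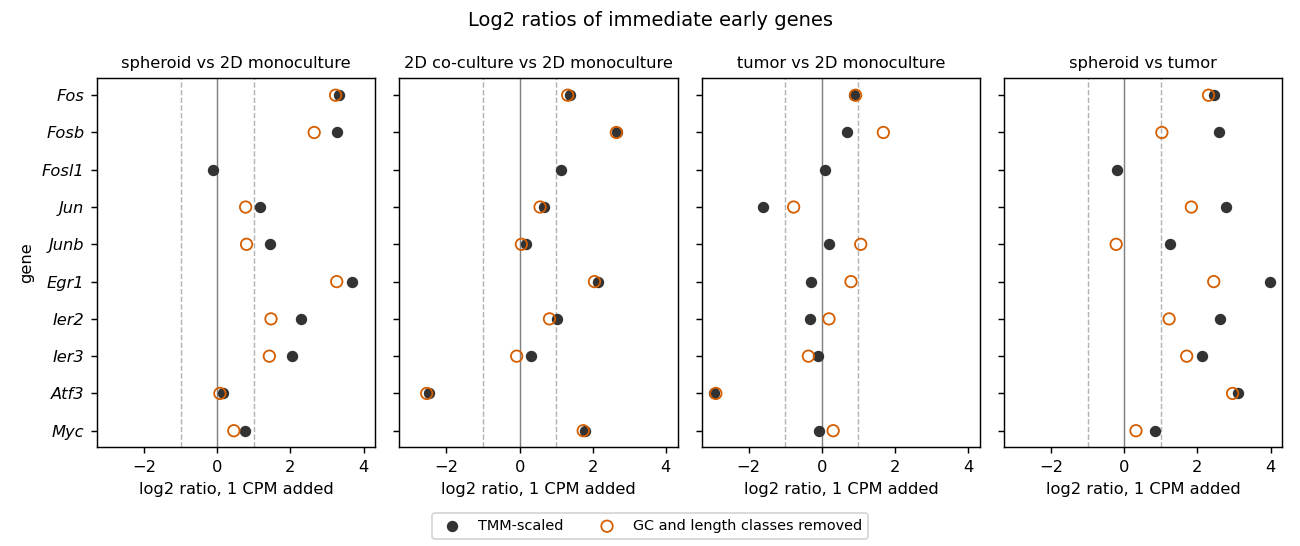
Log2 ratio of each gene, with 1 CPM added to both values, in 4 comparisons, where filled points are TMM-scaled values and open circles are values after the median of classes of similar GC content and length was removed (no value for Fosl1). Dashed lines mark 2-fold, and 7 genes lie right of it for spheroid vs 2D monoculture against 0 for tumor vs 2D monoculture.

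The ratios of all genes moved with base composition, and these members are GC-rich, with transcripts between 51.9% (Fos) and 62.6% (Junb) GC. Across 12669 genes, which are not independent replicates, Spearman's correlation of GC content with the log2 ratio was 0.484 for spheroid to 2D monoculture, 0.211 for co-culture to monoculture, 0.405 for spheroid to co-culture, -0.388 for tumor to monoculture and 0.544 for spheroid to tumor. In the class of genes with a median GC content of 60.0% the median log2 ratio of spheroid to tumor was 1.58, and in that of 40.1% it was -1.12. When the median of genes of similar GC content and length was removed, Egr1 (3.27), Fos (3.23), Fosb (2.65), Ier2 (1.47) and Ier3 (1.42) were still over 2-fold higher in the spheroid than in the monoculture, and Junb (0.80) and Jun (0.78) were within 2-fold. Over all genes with a value, 9.12% were then over 2-fold higher and 11.1% lower. For spheroid to tumor, 7 members were over 2-fold higher after this step, and Junb went from 1.24 to -0.22. Over all genes with a value, 16.5% were over 2-fold higher there and 21.4% lower. For tumor to monoculture, Fosb (1.68) and Junb (1.06) were over 2-fold higher and Jun (-0.77) was within 2-fold, while over all genes with a value 15.8% were over 2-fold higher and 5.68% lower. Atf3 was barely moved, at -2.54 for co-culture to monoculture and -2.90 for tumor to monoculture.

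**Figure D3:**
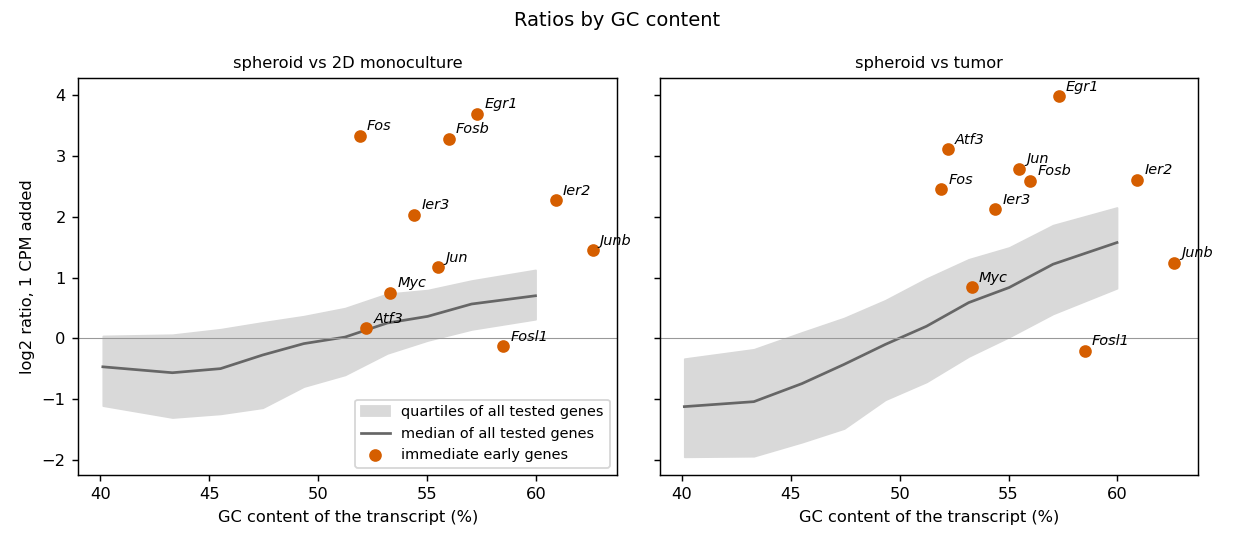
Log2 ratio, 1 CPM added, against the GC content of the transcript in percent, for the spheroid compared with the 2D monoculture (left) and the tumor (right), with the median and quartiles of all genes tested over 10 classes of GC content as line and band, and the immediate early genes as points. The line climbs with GC content in both panels, and Egr1, Fos and Fosb lie above the band in both.

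Levels of different genes can be compared only per length of transcript, in CPM per kb. On that scale Ier3, whose transcript is the shortest of the members, was the most abundant member in the spheroid, at 326 CPM per kb, followed by Jun (141) and Fos (117). In the monoculture the order began with Atf3 (87.3), Ier3 (79.1) and Jun (62.8), and Egr1 (2.69) and Fosb (0.986) were near its end. In the 2D co-culture Jun (99.2) and Ier3 (97.6) led, followed by Myc (65.6). In the tumor Ier3 (74.0) and Junb (35.7) led.

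AP-1 is a dimer, so the balance of its partners was summed over Fos, Fosb, Fosl1 and Fosl2 on one side and Jun, Junb and Jund on the other. Both sides together came to 648 CPM per kb (spheroid), 259 CPM per kb (2D co-culture), 231 CPM per kb (monoculture) and 122 CPM per kb (tumor). The FOS family made up 22.7% of this in the spheroid, 19.5% in the co-culture, 10.1% in the monoculture and 26.3% in the tumor. Thus the monoculture had the smallest share of FOS-type transcripts. The order of tumor and spheroid depended on base composition, since with levels rebuilt from the monoculture by the ratios after the GC and length step, and Fosl1 left out, the shares were 29.8% (spheroid), 21.5% (tumor), 20.3% (2D co-culture) and 9.99% (monoculture). On these rebuilt levels the sums lay closer together, at 454 (spheroid), 238 (2D co-culture), 230 (monoculture) and 193 CPM per kb (tumor). The values that follow are without that step. Within the FOS family, Fosl2 (10.8) was about as abundant as Fos (11.2 CPM per kb) in the monoculture, whereas in the spheroid Fos reached 117 and Fosl2 17.8. Jund, a JUN protein of resting cells, was the largest single part in the monoculture (49.3%) and the spheroid (42.3%), Jun in the co-culture (38.3%) and Junb in the tumor (29.1%).

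**Figure D4:**
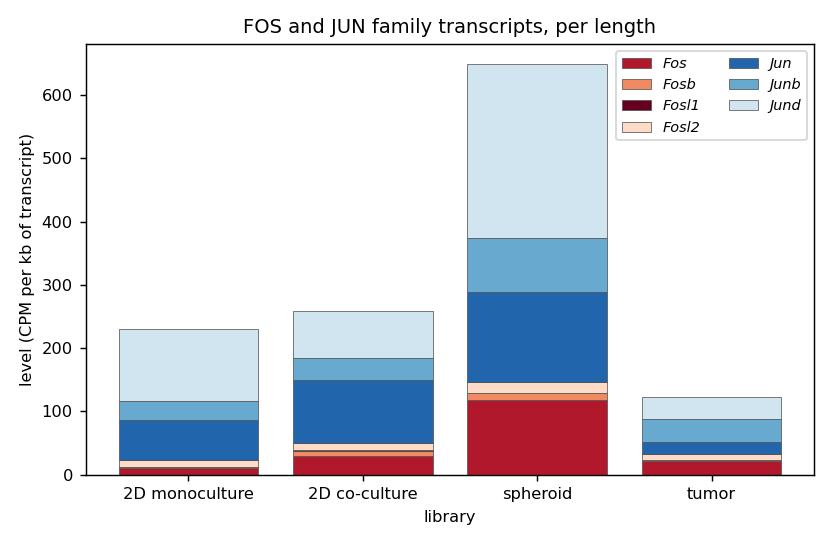
Summed level of FOS family (red shades) and JUN family (blue shades) transcripts in each library, in CPM per kb of transcript, stacked by gene from 0. The spheroid reaches 648 CPM per kb and the tumor 122, and the FOS family share is lowest in the 2D monoculture at 10.1%, all without the GC and length step.

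Other genes of the same response were read from lists of related genes. Their counts stand beside the shares of all genes tested given above, which were 11.2% higher and 17.9% lower for spheroid to monoculture, 3.79% and 9.51% for co-culture to monoculture, and 14.8% and 18.2% for tumor to monoculture. Of 13 other primary response transcription factor genes that averaged 1 CPM or more, 4 were over 2-fold higher in the spheroid than in the monoculture and 0 lower, with a median log2 ratio of 0.46. Nr4a1, an orphan nuclear receptor, had 223 CPM (spheroid) and 59.4 CPM (monoculture), and Egr2, a relative of Egr1, 3.93 and 0.372 CPM. In the tumor 3 of these genes were higher and 2 lower, and Hes1, a target of Notch signalling, had 5.59 CPM against 32.1 CPM (monoculture). Of 20 primary response genes that encode other proteins, 9 were over 2-fold higher and 1 lower in the spheroid, with a median of 0.96. Socs3, an inhibitor of cytokine signalling, had 39.5 CPM (spheroid), 44.8 CPM (tumor) and 5.98 CPM (monoculture). Cyr61, a matrix-associated protein also induced by mechanical signals, had 1094 CPM (spheroid), 590 CPM (2D co-culture), 250.3 CPM (monoculture) and 74.7 CPM (tumor). Ptgs2, the inducible prostaglandin synthase, went another way, with 18.5 CPM (co-culture) and 13.0 CPM (tumor) but 0.213 CPM (spheroid) and 0 reads in the monoculture. Of these 20 genes, 4 were over 2-fold higher and 6 lower in the tumor than in the monoculture, beside 14.8% and 18.2% of all genes tested. The GC and length step described above took their median there from -0.19 to 0.10. Of the 6, Plk2 (-1.94) and Cyr61 (-1.39) stayed over 2-fold lower, while Rhob (-0.96), Plk3 (-0.83), Phlda1 (-0.53) and Per1 (0.05) were within 2-fold. The 4 stayed over 2-fold higher, and Zfp36 (1.27) and Trib1 (1.07) joined them. These genes, apart from Cyr61, were named after their values were seen.

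Among 11 other AP-1 and ATF genes, 4 were over 2-fold higher and 1 lower in the spheroid than in the monoculture (median 0.72). Maff, a small MAF protein, had 39.3 CPM against 5.78 CPM, and Jdp2, which represses AP-1, 156 CPM against 28.6 CPM. In the tumor 3 of the list were higher, Batf2 the most with 5.01 CPM against 0.323 CPM, and 4 were lower. The NAB proteins bind and restrain EGR factors, and Nab2, which EGR1 induces, had 39.9 CPM (spheroid), 38.8 CPM (co-culture), 27.1 CPM (tumor) and 16.5 CPM (monoculture). Nab1 was lower in the spheroid, with 31.6 CPM against 71.3 CPM (monoculture). The factors upstream of Fos and Egr1 were mostly within 2-fold in the spheroid, 7 of 8 with a median of -0.06. In this list Mkl2 was the member outside 2-fold, with 13.3 CPM against 45.7 CPM, Creb1 had 29.0 CPM against 55.4 CPM, and Mkl1 had 17.4 CPM (tumor) against 59.6 CPM (monoculture). For spheroid to monoculture, the GC and length step left Mkl2 (-0.70), Creb1 (0.13), Nab1 (-0.66) and Nab2 (0.50) within 2-fold. Maff (1.99) and Jdp2 (1.80) stayed over 2-fold higher. For tumor to monoculture the step left Mkl1 (-0.49) within 2-fold, and Nab2 (1.55) and Batf2 (2.50) were over 2-fold higher.

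Genes that ERK induces to restrain its own signalling were read as well. Of 11, 4 were over 2-fold higher in the spheroid (median 0.44), 5 in the co-culture (0.77) and 4 in the tumor (0.83), and 2 were lower in the tumor. Spry4, an inhibitor of receptor signalling to ERK, had 12.6 CPM (spheroid), 11.3 CPM (co-culture), 8.68 CPM (tumor) and 2.04 CPM (monoculture), and Dusp5, a nuclear ERK phosphatase, had 9.03, 3.41, 5.05 and 2.41 CPM in the same order. After the GC and length step Spry4 (2.15) was over 2-fold higher in the spheroid than in the monoculture, and Dusp5 (0.92) was within 2-fold.

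Atf3 belongs to the ATF4 and CHOP stress response, whose other genes were read next. Of 10, 7 were over 2-fold higher in the spheroid than in the monoculture (median 1.65, or 0.94 after the GC and length step, beside 11.2% of all genes tested), 0 in the co-culture, where all 10 were within 2-fold (median -0.17), and 6 were over 2-fold lower in the tumor (median -1.66, or -1.49 after that step, beside 18.2% of all genes tested). Trib3, a pseudokinase, had 1279 CPM (spheroid) against 191 CPM (monoculture), and Ppp1r15a, which restores translation after stress, had 700 CPM (spheroid), 171 CPM (monoculture) and 18.2 CPM (tumor). Atf3 was low with this list in the tumor, but in the spheroid it was within 2-fold of the monoculture, as were 3 of the 10 genes. In the co-culture Atf3 was over 2-fold lower, unlike any gene of the list.

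Dissociation can induce heat shock genes together with immediate early genes. In the spheroid 2 of 10 heat shock genes were over 2-fold higher than in the monoculture and 4 lower (median -0.30), beside 11.2% and 17.9% of all genes tested. In the co-culture 0 were higher and 5 lower (median -0.89), beside 3.79% and 9.51%. Hsp90aa1 had 538 CPM (spheroid) and 441 CPM (co-culture) against 2917 CPM (monoculture), and Hsph1 62.5 and 73.7 CPM against 332 CPM. The genes higher in the spheroid were Hspa1a, with 46.7 CPM against 21.8 CPM, and Hspa1b, with 150 CPM against 66.2 CPM, both chosen after their values were seen. After the GC and length step both were within 2-fold, at 0.34 (Hspa1a) and 0.55 (Hspa1b). For spheroid to monoculture Hsp90aa1 (-1.81) and Hsph1 (-1.90) stayed over 2-fold lower. The near-identical copies Hspa1a and Hspa1b are uncertain, since reads can be split between them. In the tumor Hspb1, a small heat shock protein of muscle and other tissues, had 68.3 CPM against 0.133 CPM (monoculture). The tumor library also held the muscle, fibroblast, myeloid, endothelial and adipocyte markers given above. The part of these cells in the Hspb1 level was not tested.

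**Figure D5:**
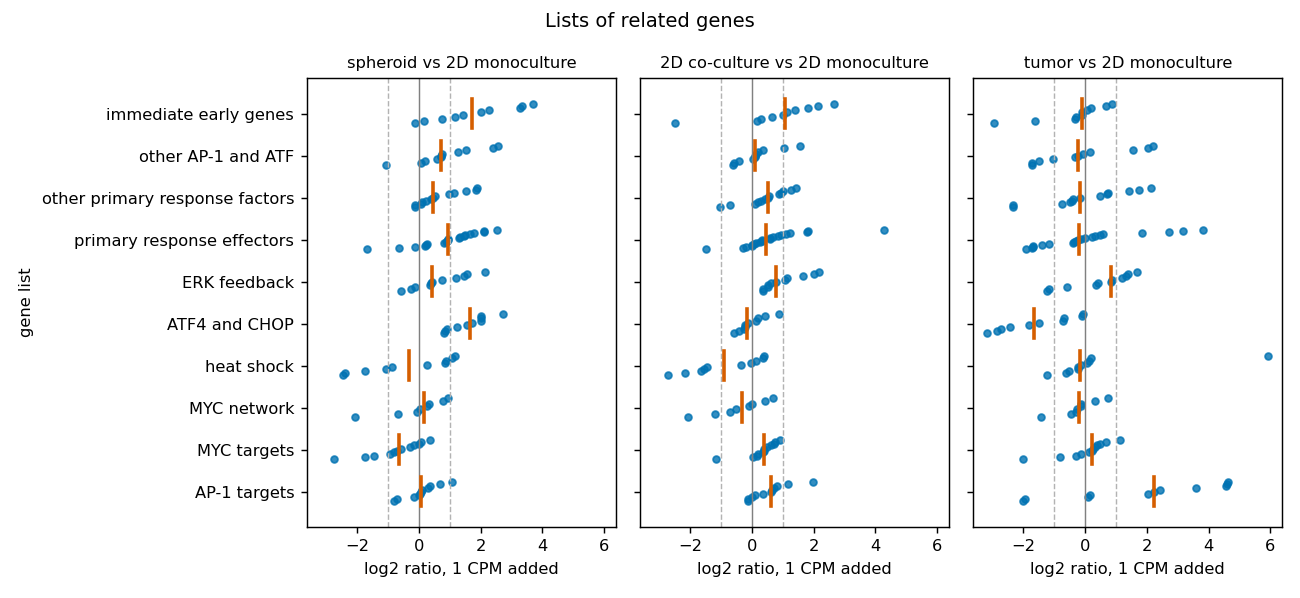
Log2 ratio to the 2D monoculture, 1 CPM added, for each gene of 10 lists in the spheroid, 2D co-culture and tumor, where points are genes (those with a mean of at least 1 CPM, and all 10 immediate early genes), orange bars are medians and dashed lines mark 2-fold. The immediate early genes and the ATF4 and CHOP genes have medians of 1.74 and 1.65 in the spheroid, and the ATF4 and CHOP genes lie lowest in the tumor at -1.66.

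Myc was highest in the co-culture, and its textbook targets were read beside it. Of 12, 11 were within 2-fold in the co-culture (median 0.40) and 1, Ncl, was lower. In the spheroid 0 were higher and 3 lower than in the monoculture (median -0.64). Between spheroid and co-culture, where Myc was lower in the spheroid (-1.05), 0 of the targets were higher and 7 lower. Their median there was -1.15, or -1.26 after the GC and length step, beside 9.54% of all genes tested higher and 8.46% lower. Ncl, the nucleolar protein nucleolin, had 910 CPM (monoculture), 411 CPM (co-culture), 136 CPM (spheroid) and 1146 CPM (tumor), and Nop58, a ribosome assembly factor, 195, 200 and 57.9 CPM in the cultures in that order. Cad, an enzyme of pyrimidine synthesis, had 58.9 CPM (tumor) against 240 CPM (monoculture). Among 8 partners and antagonists of MYC, 7 were within 2-fold in the spheroid. Mga, a repressor that pairs with MAX, had 7.28 CPM (spheroid) and 7.27 CPM (co-culture) against 34.0 CPM (monoculture), and Mnt had 149 CPM (spheroid), 77.5 CPM (monoculture) and 27.9 CPM (tumor). After the GC and length step, Nop58 (-0.70) and Mga (-0.81) were within 2-fold for spheroid to monoculture, while Ncl (-1.47) stayed over 2-fold lower. For co-culture to monoculture, Mga (-1.31) stayed over 2-fold lower and Ncl (-0.38) was within 2-fold. Cad (-0.81) and Mnt (-0.21) were within 2-fold for tumor to monoculture.

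Textbook targets of AP-1 did not follow the sum of AP-1 transcripts. Of 11, 1 was over 2-fold higher in the spheroid than in the monoculture (median 0.08), Hbegf, a growth factor of the EGF family, with 17.9 CPM against 7.98 CPM. Ccnd1, the cyclin of early G1, had 225 CPM (spheroid) against 390 CPM. In the tumor, which had the lowest AP-1 sum, 7 were over 2-fold higher and 2 lower (median 2.22), and Mmp3, a matrix protease, had 23.7 CPM against 0.00702 CPM, or 1 read, in the monoculture. The tumor library also held the markers of fibroblasts and myeloid cells given above, and the part of these cells in its AP-1 targets was not tested.

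The genes most like each member were found among 9587 genes (9588 for Fosl1) that averaged 10 CPM or more, by the Euclidean distance of the log2 values (1 CPM added) over the 4 libraries after centring, which describes only 4 points. Acvrl1 and Acyp1 lay nearest to Junb (distances 0.084 and 0.092), Odf3l1 and Adgra2 to Ier2 (0.091 and 0.207), Htra2 and Khsrp to Jun (0.098 and 0.144), Prss36 and Map4k2 to Ier3 (0.131 and 0.151), and Fastkd3 and Ranbp1 to Fosl1 (0.154 and 0.156). These patterns were common, with between 30 (Ier2) and 251 (Junb) genes within a distance of 0.5. For Fosl1, with 75 such genes, this holds only with the 1 CPM added. That took its log2 ratio of co-culture to monoculture from 2.57 to 1.14. Myc, Fos, Atf3, Fosb and Egr1 had few or none. Snhg1 and 1110038B12Rik lay nearest to Myc (0.319 and 0.374, with 5 genes within 0.5), Acss1 and Nrbp2 to Fos (0.481 and 0.516, with 1), Fam214b and Ndrg4 to Atf3 (0.571 and 0.615, with 0), Lrrc4b and Tcf7 to Fosb (0.938 and 0.982, with 0), and Lrrc4b and Pck2 to Egr1 (1.02 for Pck2, with 0).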

How the data were processed

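RNA of 4 samples, 1 per condition, was made into libraries from oligo-dT selected mRNA and read in pairs. The authors deposited read counts per refGene symbol, whole numbers without normalization. The submitters' processing notes name Trimmomatic, STAR, featureCounts and the mouse build mm10; their versions, the strand setting and any filters are unstated there. Each column was matched to a sample by its label.

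Counts were scaled with TMM factors (edgeR 4.0.16, R 4.3.3). DESeq2 1.42.0 size factors, total counts, upper quartiles, other pseudocounts, filters and folds, and removal of the median of 10 classes of GC content by 10 of length (GENCODE M21, GRCm38, a value for 99.5% of genes tested) were alternatives. Levels have exact Poisson intervals and log2 ratios of single genes, with nothing added, exact binomial (Clopper-Pearson) intervals. PCR reads are not independent molecules. Counts of genes and medians use 1 CPM added. Ratios were tested on simulated data with 200 genes changed 4-fold, and 100% of those at 20 CPM or more passed 2-fold in the comparison of spheroid and 2D monoculture over 11726 genes. The simulated counts held counting error alone, with no variation between samples and no GC trend. This checks the calculation, not the differences between the real libraries.

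Named are all members, the 2 genes most like each, and from each list the 2 genes with the largest ratio of spheroid and the 1 with the largest of tumor to 2D monoculture. Members and lists were chosen with earlier results of these data known. Tables and plots were made with matplotlib 3.10.9, scipy 1.17.1, pandas 2.3.3 and numpy 2.4.6 in Python 3.11.15.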

Additional observations from a re-analysis of the deposited data

How the results depend on the processing

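No paired analysis was possible because the libraries carry no replicate numbers, with 1 library for each condition. Under the alternatives, 152 counts and medians of the members stayed within 1.5 times the reported value and 12 did not, where medians were compared as folds and not as log2 values. On the log2 scale the median for tumor to monoculture changed sign, from -0.09 to 0.14 (total counts), 0.15 (upper quartiles) and 0.31 (GC content and length classes), and that for spheroid to co-culture went from 1.27 to 0.76 with the classes. TMM factors of the 3 culture libraries alone, chosen after seeing the data, changed no count by over 1.5 times. The classes were applied to library distances and AP-1 shares after seeing the data too. Of 32 member ratios over 2-fold, all kept their sign under every scaling and pseudocount, and 30 stayed over 2-fold with total counts. With GC content and length classes, 29 of 30 kept their sign and 23 stayed over 2-fold, and Junb turned to -0.22 for spheroid to tumor, where the median of the members moved to 1.71. That setting has no value for Fosl1, gave 2 members higher and 1 lower in the tumor than in the monoculture, and 1 lower in the spheroid than in the co-culture, the latter also with a mean of at least 10 CPM. With total counts or upper quartiles 1 member, Fos, was over 2-fold higher in the tumor than in the monoculture, and with a limit of 1.5-fold 2 were. With a limit of 4-fold, 2 members were higher in the co-culture than in the monoculture, 1 was lower in the tumor than in the monoculture, and 1 was higher and 0 were lower in the spheroid than in the co-culture. The fewer members follow from the stricter limit and filter themselves, and for the other settings the cause was not tested. Total counts moved the median log2 ratio of all genes tested by -0.33 for spheroid to tumor and by 0.22 for tumor to monoculture, and upper quartiles by -0.12 and 0.23. With total counts 36.7% of genes over 2-fold between spheroid and tumor were higher in the spheroid, against 49.2% with TMM factors. For tumor to monoculture 59.9% (total counts), 60.5% (upper quartiles), 73.5% (GC content and length classes), 80.9% (4-fold) and 24.7% (a mean of at least 10 CPM) were higher, against 44.8%, and the classes took the genes over 2-fold lower from 18.2% to 5.68%, and for co-culture to monoculture 39.0% (upper quartiles) against 28.5%. Depth limits Fosl1 alone among the members.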
